A study of Homo sapiens with 3 samples.

Results

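FOXM1 peaks called inside protein-coding genes, beyond 1 kb but no farther than 5 kb from a gene end, numbered 525. Members were peaks of ChIP replicate 2 on chromosomes 1 to 22 and X that overlapped a peak of replicate 3 by at least 1 bp. The summit had to lie inside a RefSeq protein-coding gene, more than 1 kb and at most 5 kb from the nearest protein-coding gene end, and more than 1 kb from the ends of any other gene. They were 525 of 8271 peaks in the replicate 2 list, and 525 of the 5716 shared peaks on these chromosomes (9.18%, exact 95% interval 8.45 to 9.96). The members were chosen by the peak calls of both libraries and by position, so the fold and q values below describe them and were not tested. Fold is the authors' ratio of fragments at the summit to the local background, and −log10 q, also theirs, is larger for a firmer call. Fragment counts were rebuilt from those values.

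The study mapped FOXM1 in Huh7, an established human hepatocellular carcinoma line, by ChIP-seq, which sequences DNA fragments pulled down with an antibody. The ChIP libraries, replicates 2 and 3, were made from untreated cells with the anti-FOXM1 antibody G-5, and 1 input library without antibody completed the 3 samples. Separate cultures for the ChIP libraries are not stated in the labels. No ChIP with a different antibody, or from cells lacking FOXM1, was analysed here, so antibody specificity was not tested.

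FOXM1 is a forkhead transcription factor best known as an activator of late cell cycle and mitotic genes. Many human genes have several promoters, and RefSeq draws a gene record from its outermost transcript ends, so the start of a shorter transcript can lie inside the record. Such an inner start is a promoter although it is not at the end of the gene. Below, an outer start is the 5′ end of the gene record and an annotated start is any transcript start in the RefSeq promoter table.

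Of these inner and outer starts, members were often near one: 223 of the 503 members on chromosomes with annotated starts had their summit within 1 kb of one (44.3%, exact 95% interval 39.9 to 48.8). Of all bases that meet the same position rule on these chromosomes, 2.43% lay that close to an annotated start. The promoter table has no entry for the gene at the nearest end of 94 of the 503, of which 2 were near a start, so 44.3% may be an undercount. Among the 409 with an end of known kind the share was 221 (54.0%, exact 95% interval 49.1 to 58.9), against 2.87% of bases. In 216 of the 223 cases (96.9%) the start belonged to the gene that held the peak. The other 22 members, on a chromosome not in the promoter table, were not analysed here for starts, strand or sequence.

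The promoter windows that carried this pattern are shown for 6 members, those of highest fold among the 42 whose summits in both libraries fell inside 1 window. Each window runs from 250 bp before to 50 bp after an inner start, 5′ to 3′, with sequence from RefSeq (GRCh38.p14). Capitals mark GC boxes (GGGCGG or its complement CCGCCC) and the CCAAT box (CCAAT or ATTGG).
BAHD1: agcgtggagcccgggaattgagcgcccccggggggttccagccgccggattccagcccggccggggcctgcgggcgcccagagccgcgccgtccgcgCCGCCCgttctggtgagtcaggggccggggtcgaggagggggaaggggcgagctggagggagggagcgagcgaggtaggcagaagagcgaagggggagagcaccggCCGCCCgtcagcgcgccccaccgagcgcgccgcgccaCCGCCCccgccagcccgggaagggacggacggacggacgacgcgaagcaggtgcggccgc
CAMKK2: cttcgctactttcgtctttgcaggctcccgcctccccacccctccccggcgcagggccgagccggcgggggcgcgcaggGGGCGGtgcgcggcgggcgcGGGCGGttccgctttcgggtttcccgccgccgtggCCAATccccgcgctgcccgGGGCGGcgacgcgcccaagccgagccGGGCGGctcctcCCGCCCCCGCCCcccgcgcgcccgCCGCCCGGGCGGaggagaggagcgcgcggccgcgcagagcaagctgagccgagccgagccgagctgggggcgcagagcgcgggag
KMT5A: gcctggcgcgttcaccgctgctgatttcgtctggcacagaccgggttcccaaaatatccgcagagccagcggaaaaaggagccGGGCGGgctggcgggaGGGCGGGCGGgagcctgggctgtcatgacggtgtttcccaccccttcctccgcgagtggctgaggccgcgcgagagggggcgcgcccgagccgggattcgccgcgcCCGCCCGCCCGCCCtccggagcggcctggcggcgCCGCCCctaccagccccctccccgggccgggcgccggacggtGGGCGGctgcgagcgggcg
TUBB: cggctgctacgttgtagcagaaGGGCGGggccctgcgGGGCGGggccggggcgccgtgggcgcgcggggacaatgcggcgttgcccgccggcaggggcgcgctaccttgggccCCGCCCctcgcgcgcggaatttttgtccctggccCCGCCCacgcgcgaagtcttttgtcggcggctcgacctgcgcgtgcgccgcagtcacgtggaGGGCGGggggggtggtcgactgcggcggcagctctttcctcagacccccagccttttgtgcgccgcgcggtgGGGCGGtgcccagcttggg
HDAC7: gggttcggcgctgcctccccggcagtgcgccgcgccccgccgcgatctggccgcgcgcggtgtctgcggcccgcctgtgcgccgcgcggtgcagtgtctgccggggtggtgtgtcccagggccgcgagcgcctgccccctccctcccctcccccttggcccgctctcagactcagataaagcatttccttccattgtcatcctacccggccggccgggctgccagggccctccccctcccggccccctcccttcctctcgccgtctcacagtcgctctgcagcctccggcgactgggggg
NRIP1: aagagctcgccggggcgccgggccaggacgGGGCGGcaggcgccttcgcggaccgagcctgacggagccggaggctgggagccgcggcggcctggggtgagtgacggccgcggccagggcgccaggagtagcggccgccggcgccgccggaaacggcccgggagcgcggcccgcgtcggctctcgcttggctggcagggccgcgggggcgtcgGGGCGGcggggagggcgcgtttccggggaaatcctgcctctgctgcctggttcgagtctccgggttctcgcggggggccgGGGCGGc

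The windows lie at chr15:40441160-40441459 (BAHD1, plus strand), chr12:121296660-121296959 (CAMKK2, minus strand), chr12:123388661-123388960 (KMT5A, plus strand), chr6:30721388-30721687 (TUBB, plus strand), chr12:47819854-47820153 (HDAC7, minus strand) and chr21:15064541-15064840 (NRIP1, minus strand). Each start is inside the gene of that name. CAMKK2 and KMT5A had 8 GC boxes each, counting overlapping ones, TUBB had 6, and BAHD1 and NRIP1 had 3 each. HDAC7 had no GC box and no CCAAT box, and only CAMKK2 of the 6 had a CCAAT box. None of the 6 windows held the forkhead core TAAACA, on either strand.

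The peaks in these windows were chosen for high fold, so their place above the median member follows from that choice. BAHD1 encodes a heterochromatin protein with a BAH domain. Its peak (chr15:40441144-40441610) had a fold enrichment of 6.45 in replicate 2 and 5.64 in replicate 3, on 29 and 24 fragments, with summits 58 bp and 188 bp before the start. CAMKK2, a kinase that activates AMPK, had fold 5.38 and 5.19 on 24 fragments in each library, with summits 90 bp and 53 bp before its start.

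KMT5A, the enzyme that places a single methyl group on lysine 20 of histone H4, had its summit 4826 bp from the outer start of the gene but 47 bp after an inner start. Its fold was 5.46 in replicate 2 and 5.06 in replicate 3. TUBB encodes a beta-tubulin, a building block of microtubules, and had fold 5.29 and 4.78. In replicate 3 the KMT5A summit was 15 bp before the start, and the TUBB summits were 183 bp and 144 bp before theirs.

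HDAC7, a class IIa histone deacetylase, was less even, with fold 4.69 in replicate 2 and 6.46 in replicate 3, the highest replicate 3 value of any member. NRIP1, a corepressor of nuclear receptors, had 4.61 and 4.68. ATF1, a factor of the CREB family, also had both summits in 1 window, 49 bp after and 137 bp before the start, with fold 4.41 in replicate 2 and 5.17 in replicate 3.

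Distance to an annotated start was graded (plot of distance to the nearest annotated start). Within 100 bp lay 54 members (10.7%), against 0.230% of the bases. Within 500 bp lay 181 (36.0%), against 1.10%. Between 1 kb and 2 kb the shares were closer, 100 members (19.9%) against 12.3% of bases, and over 4 kb members were the scarcer, 137 (27.2%) against 62.3%. Shared peaks more than 5 kb from gene ends inside genes had a like share within 1 kb, 259 of 496 (52.2%), so closeness to inner starts was not shown to be particular to the 1 to 5 kb zone.

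**Figure D1:**
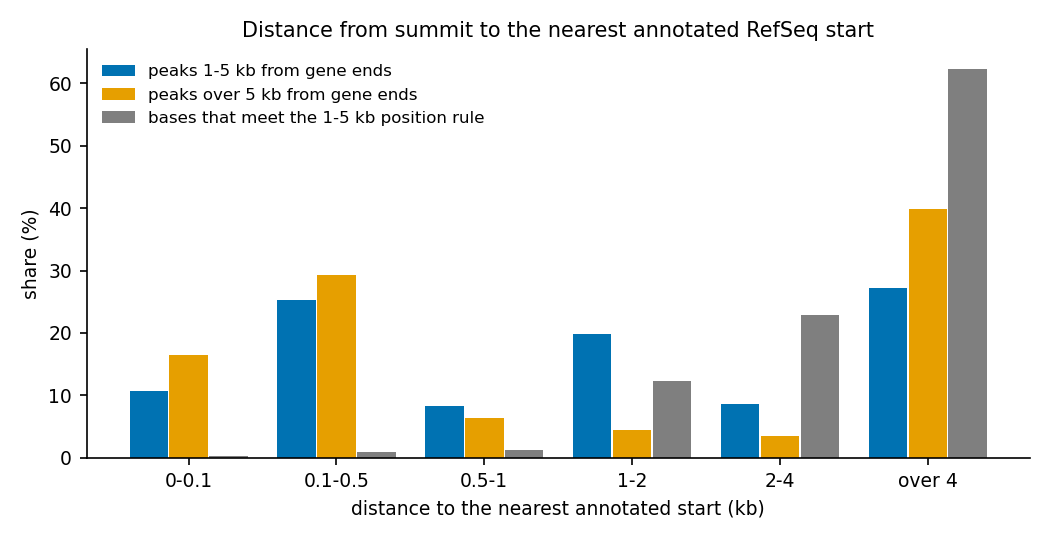
Share (%) of peak summits, or of bases, by distance (kb) to the nearest annotated RefSeq start, for 503 shared peaks 1 to 5 kb from gene ends (blue), 496 shared peaks over 5 kb from gene ends (orange) and all bases that meet the 1 to 5 kb position rule (grey). Within 0.5 kb the peaks far exceed the bases (36.0% of the 1 to 5 kb peaks against 1.10% of bases), and over 4 kb the bases exceed both sets of peaks.

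Summits lay downstream of the start about as often as eligible bases do. Of the 223 members within 1 kb, 155 had the summit after the start in the direction of transcription (69.5%, exact 95% interval 63.0 to 75.5), against 67.5% of the eligible bases within 1 kb of a start, since the rule removes bases near the outer start. Within 250 bp the shares were 71 of 122 members (58.2%, exact 95% interval 48.9 to 67.1) and 53.9% of bases. The median position was 129 bp after the start, with quartiles at -51 and 368.5 bp. Measured with replicate 3 summits, 241 of the 503 members (47.9%) lay within 1 kb of an annotated start, against 44.3% by replicate 2. The starts of 198 genes were involved.

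Members also lay at the start side of genes. The strand was known for the nearest gene end of 409 members, and for 331 that end was a start (80.9%, exact 95% interval 76.8 to 84.6), against 49.1% of the bases that meet the rule. Shared peaks within 1 kb of gene ends were at a start in 96.6% of cases with known strand, and those more than 5 kb inside genes were nearest to a start in 58.5%. For the other 94 members on chromosomes with starts, the promoter table gave no strand for the gene.

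The density of members was highest next to a start and lower up to about 3 kb from it, with no further decline to 5 kb. Per Mb of eligible positions there were 15.3 members between 1 and 2 kb from an outer start, then 4.79, 2.27 and 2.42 in the following kb. From a gene finish the values were 2.11, 1.398, 1.34 and 0.933 per Mb over the same steps. Of members nearest to a start, 211 of 331 (63.7%) lay within 1 kb of an annotated inner start, and of those nearest to a finish 10 of 78 did (12.8%). The corresponding shares of bases were 5.15% and 0.665%.

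**Figure D2:**
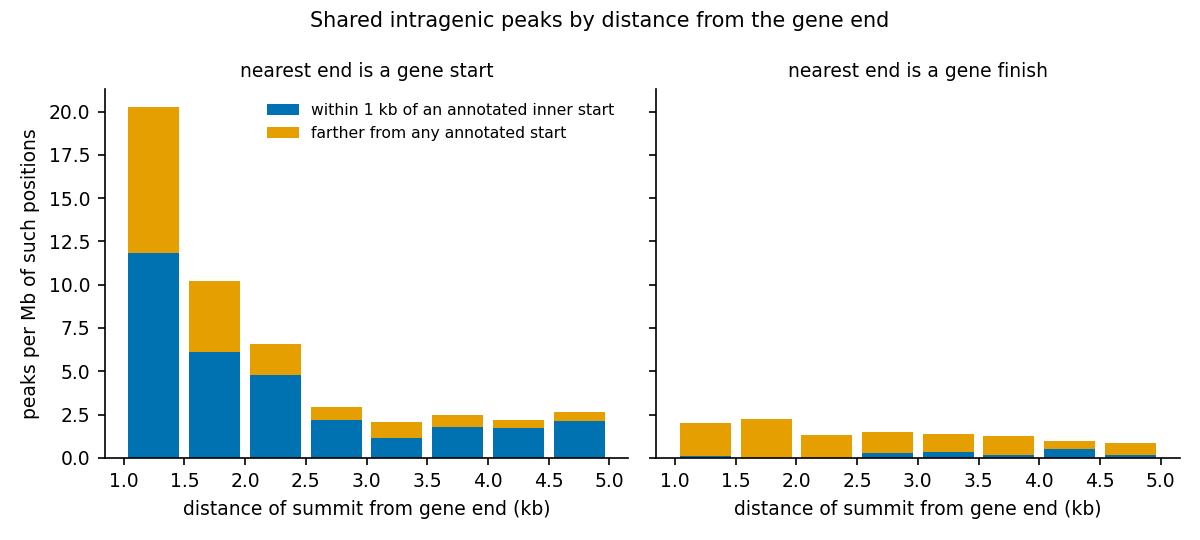
Members per Mb of eligible positions in 500 bp steps of distance (kb) from the nearest protein-coding gene end, where that end is a gene start (left) or a gene finish (right). Blue parts are members within 1 kb of an annotated inner start and orange parts are the rest. Density is highest just past 1 kb from a start, and the blue part makes up most of the left panel beyond 2 kb.

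The remaining members lay on both sides of genes. Of the 280 without an annotated start within 1 kb in the table, 87 lay 1 to 2 kb from an outer gene start, 33 lay 2 to 5 kb from one, 68 were nearest to a gene finish and 92 were nearest to an end of unknown strand. The first group had a density of 6.28 per Mb, against 2.04 at 1 to 2 kb from a finish. At 2 to 5 kb from an outer start, members without an inner start had 1.29, 0.810 and 0.519 per Mb in successive kb, against 1.25, 1.11 and 0.594 on the finish side. These rest on 17, 10 and 6 members at the start side and 17, 14 and 7 at the finish side.

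Members without an inner start nearby included JUN, the AP-1 subunit gene, with its peak (chr1:58782481-58782785) 1347 bp from the outer start and fold 3.86 in replicate 2 and 3.49 in replicate 3. NOL4L held the widest member, 1415 bp (chr20:32583074-32584488), with fold 5.10 and 5.70. The replicate 2 summit lay 1135 bp from the gene's start, and the replicate 3 summit was 857 bp from that of replicate 2. The −log10 q of this member was 11.6 in replicate 2, the highest of any member, with 13.4 in replicate 3. IMPDH1, an enzyme of guanine nucleotide synthesis, had fold 5.47 and 5.07 at 4149 bp from its start, with no other annotated start nearer. After NOL4L, the widest members were in VGLL4, a TEAD cofactor (1314 bp, fold 3.88 and 4.07), and CPT1A, the carnitine palmitoyltransferase of fatty acid oxidation (1247 bp, 3.95 and 4.05). CLCF1, a cytokine (1133 bp, 3.66 and 4.10), and CERCAM (1075 bp, 4.51 and 5.66) followed. VGLL4 and CERCAM lay within 1 kb of an inner start, and CPT1A did not. The CPT1A and CLCF1 members lie between 65 and 70 Mb of chromosome 11. Their backgrounds were 10.2 and 15.7 in replicate 2, against a median of 5.00 over all members.

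On the finish side, MARCHF10, which encodes a RING-type ubiquitin ligase, had fold 5.39 in replicate 2 and 5.41 in replicate 3 (chr17:62703943-62704359), at 2927 bp from the end of the gene. SCAP, the chaperone that escorts the SREBP factors of sterol control, had 4.58 and 4.39 at 3898 bp from its end. RBL1, the pocket protein p107, had 3.86 and 4.09 at 4506 bp. FOXA1, a pioneer factor of liver development, had 3.22 and 4.05 at 2691 bp. That summit was also 3006 bp from the annotated start of FOXA1, so it lay near the middle of this short gene. FOXA1 had a −log10 q of only 1.95 in replicate 2, where the lowest listed was 1.32. For RBL1 and FOXA1 the peaks of the libraries overlapped by only a few bp, with summits 199 bp and 92 bp apart.

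Members near inner starts had a slightly higher median fold than the others in both libraries. The medians were 3.92 in replicate 2 and 4.08 in replicate 3 for the 223 within 1 kb, against 3.74 and 3.83 for the other 280, of which 92 are at ends of unknown strand and may have starts not in the table. At the start side alone they were 3.92 and 4.07 for 211 members near an inner start, against 3.85 and 4.01 for 120 others. Median widths in replicate 2 were 296 bp for the 223 and 250 bp for the 280. Median fragment counts differed by 1 fragment in each library, 27 against 26 and 26 against 25. These differences were not tested, since peaks of 1 library are not replicates.

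The windows at inner starts with a member differed in base composition from other inner starts. The 203 promoter windows nearest to a member had a median GC content of 74% and 35 CG dinucleotides (quartiles 28 to 42) in 300 bp. They lie at starts within 1 kb of a member and were not held to the position rule, so some are within 1 kb of a gene end. In RUFY3 the inner start is 972 bp from the outer start. At the 1263 annotated starts that meet the position rule and had no member within 1 kb, the medians were 58.7% and 9 (quartiles 4 to 22). Over all 34789 promoter windows they were 58.7% and 14. Of the 1469 annotated starts that meet the position rule, 206 (14.0%) had a member within 1 kb, a set other than the 203 windows. The 65 windows that held a member summit of replicate 2 had medians of 75.3% and 37. Windows that held a shared summit at a gene end resembled those of the members, with medians of 75% and 38.

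**Figure D3:**
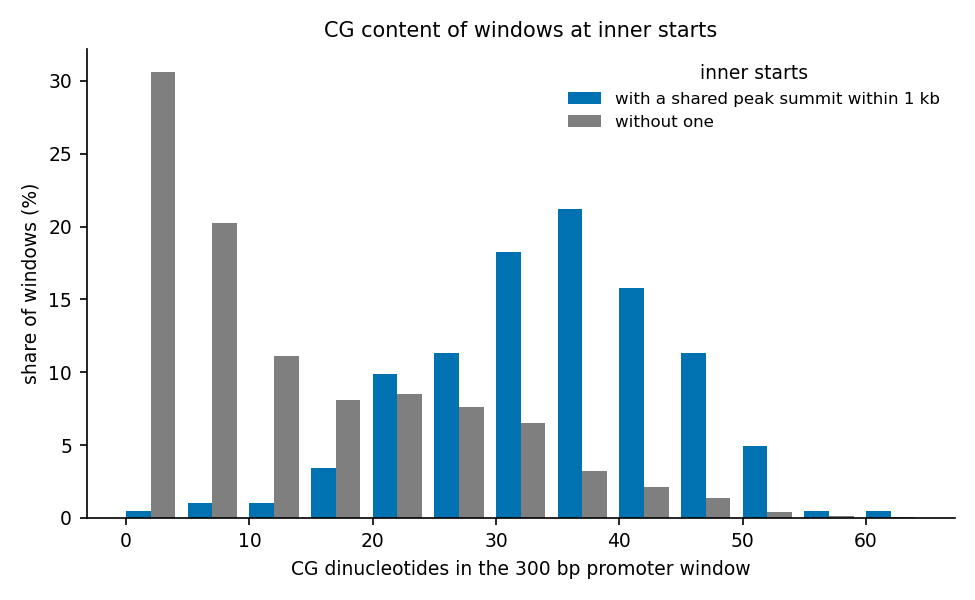
Share (%) of 300 bp promoter windows by number of CG dinucleotides, for 203 windows at starts within 1 kb of a member summit (blue) and 1263 inner starts without one (grey). The blue windows centre on a median of 35 and the grey ones on 9. Only the grey windows were held to the position rule.

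Compared with inner starts without a member, GC boxes were more frequent in the members' windows, and the forkhead core and CHR element less so. A GC box, the 6 letters GGGCGG on either strand, was in 178 of the 203 windows (87.7%), against 41.5% of inner starts without a member and 44.9% of all windows. The forkhead core TAAACA was in 8 (3.94%), against 12.2% and 12.3%. The longer TGTTTAC, whose complement GTAAACA contains that core, was in 1 (0.493%), against 3.88% and 3.42%. CCAAT was in 53 (26.1%), against 28.8% and 34.6%, and the CHR element TTTGAA, a promoter element of late cell cycle genes, in 10 (4.93%), against 14.2% and 15.2%. The 203 windows need not hold the summit. In the 65 windows that held a member summit of replicate 2, the forkhead core was in 0%. A GC box was in 89.2% of these, CCAAT in 20% and the CHR element in 3.08%. Windows that held a shared summit at a gene end were like those of the members, with a GC box in 91.7%, the forkhead core in 2.73% and the CHR element in 4.58%. Other starts of the members' own genes lay between, with 58.6%, 10.2% and 9.40%. GC content differed between members' windows and inner starts without a member (74% against 58.7%), and its part in these shares was not tested. Nor was the part of the position rule, which the members' windows did not have to meet. Sequence around summits outside these windows was not read.

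Several genes held more than 1 member. Of 469 genes with a member, 62 held at least 2 and 9 held at least 3. These 469 were 2.35% of 19974 protein-coding genes, the share against which gene lists are read below. Another shared summit lay within 1 kb of 165 members (31.4%). Neither this share nor the number of genes with several was counted for other shared peaks. Neither is shown to be particular to members. In addition, 193 members (36.8%) were in a gene that also had a shared peak within 1 kb of an end, as 19.2% of all protein-coding genes did. Both shares depend on how strictly peaks are called. They were 12.7% of members and 4.40% of genes with −log10 q of at least 5 in both libraries, 20.4% and 10.8% with summits within 100 bp, and 24.0% and 11.95% with reciprocal overlap of at least 50%. The 525 members overlapped 504 distinct peaks of replicate 3, so some neighbours share 1 partner.

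ZFPM1, a cofactor of GATA factors, held 3 members at 1343, 2076 and 4174 bp from its outer start. Their fold was 4.77, 6.23 and 4.60 in replicate 2 and 4.72, 5.03 and 5.24 in replicate 3. The first lay 168 bp before the gene's inner start and the middle one 565 bp after it. ANP32A, which encodes an acidic nuclear phosphoprotein, held 3 members at 2109, 2712 and 3127 bp from its only annotated start, with fold 4.47, 3.53 and 3.32 in replicate 2 and 4.41, 4.33 and 3.01 in replicate 3.

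RUFY3 had 3 members between 1101 and 1768 bp, the nearest 129 bp after an inner start, with fold 4.29, 3.42 and 2.93 in replicate 2. The first and middle ones shared a replicate 3 partner of fold 4.94, and the last had 4.37. PITPNM1, a phosphatidylinositol transfer gene, held 4, 3 at the start side and 1 at the finish side, and their folds reached at most 3.38 in replicate 2, on 39 to 76 fragments. It lies in the stretch of chromosome 11 from 65 to 70 Mb, where 19 members had a median background of 14.0 in replicate 2, against 5.00 over all members. The other genes with 3 members were DLL3, a Notch ligand, FAM78A, KCTD15, NTMT1, an N-terminal methyltransferase, and SH2B2.

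**Figure D4:**
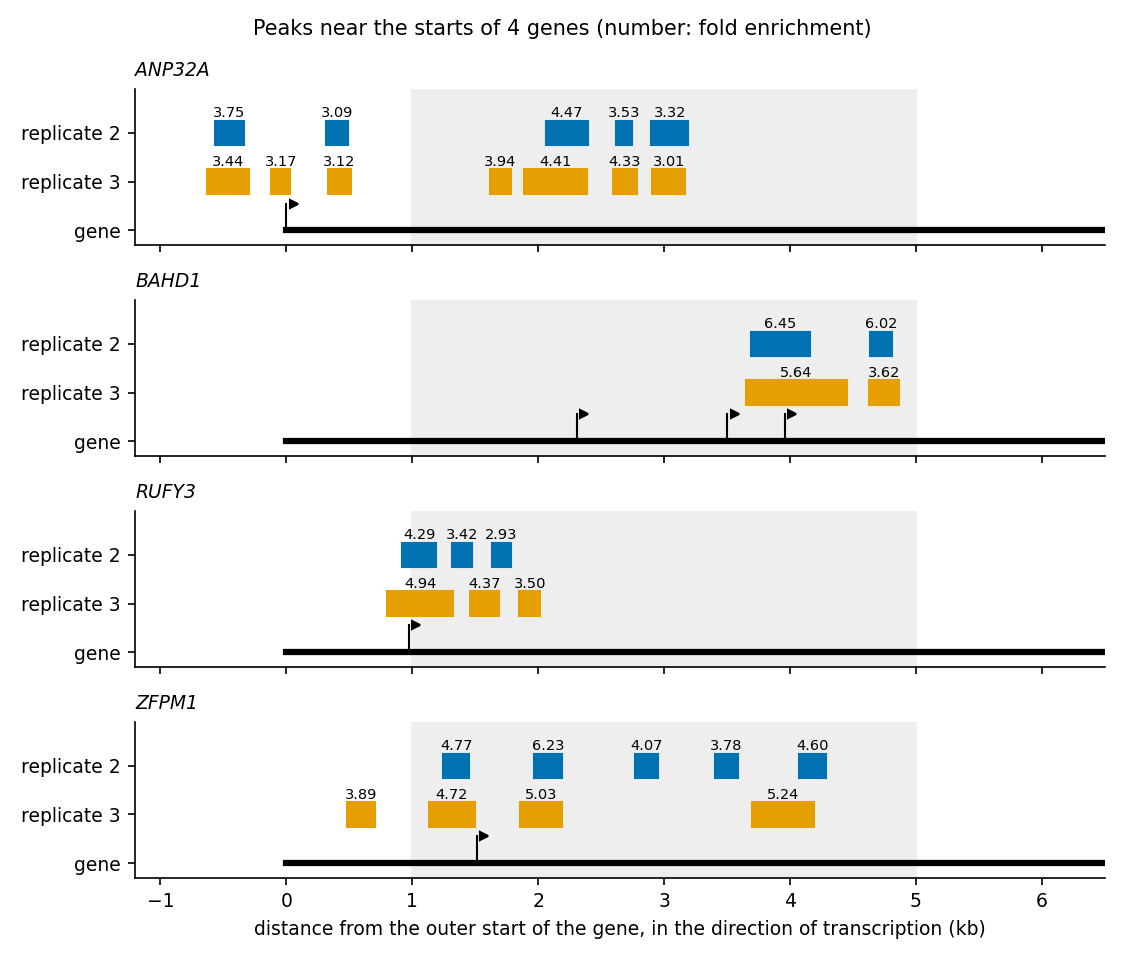
Peaks of replicate 2 (blue) and replicate 3 (orange) with their fold enrichment, by distance (kb) from the outer start of ANP32A, BAHD1, RUFY3 and ZFPM1. Arrows are annotated starts, black bars the genes, and the grey band the 1 to 5 kb zone. In BAHD1, RUFY3 and ZFPM1 a peak of both libraries lies on or beside an inner start, whereas the only arrow of ANP32A is at the outer start.

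By strength the members resembled other shared peaks. Median fold was 3.83 in replicate 2 (exact 95% interval of the median 3.74 to 3.89) and 3.94 in replicate 3 (3.84 to 4.05). Shared peaks within 1 kb of gene ends had 3.84 and 3.99, and those over 5 kb inside genes had 3.86 and 3.96. Members had a median of 26 fragments at the summit in each library, over a median background of 5.00, and ranged from 17 to 76 fragments in replicate 2 and 15 to 84 in replicate 3. Of the 525, 102 (19.4%) had −log10 q of at least 5 in both libraries, close to the background of 20.4% of all shared peaks. Among replicate 2 peaks in the same position zone, 525 of 799 (65.7%) had a partner, against 69.5% of all replicate 2 peaks, and of replicate 3 peaks there 539 of 1158 (46.5%), against 49.5% of all. The rule itself uses these counts.

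Between libraries, the fold of a member was only loosely repeated, as it was over all shared peaks. Fold was higher in replicate 3 for 294 members (56.0%), against 55.5% of all shared peaks. Across the 525 members Spearman's rho of fold was 0.389, against 0.378 over all shared peaks, a description over peaks that share the same libraries. The SD of the log2 ratio was 0.32, against 0.33. Summits of the 2 libraries were a median of 102 bp apart, and 259 (49.3%) were within 100 bp, as were 49.8% of shared peaks at gene ends. The variance between the fragment counts of the libraries was 0.418 times that of counting error alone, so they differed by less than sampling noise. Over all shared peaks it was 0.416 times. A member needed a call in each library, and the part of that requirement in this value was not tested.

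**Figure D5:**
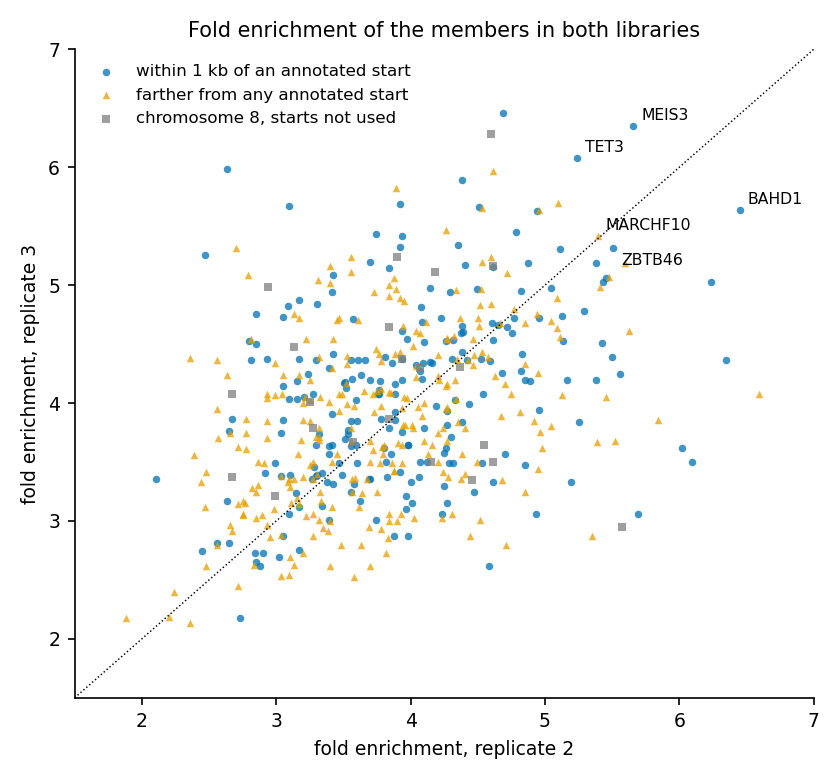
Fold enrichment of the 525 members in replicate 3 against replicate 2, with the line of equal values dotted and the 5 of highest lower fold named. Blue circles lie within 1 kb of an annotated start, orange triangles farther away and grey squares on chromosome 8. Points spread widely on both sides of the line, and all 3 kinds overlap.

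The strongest member by the lower fold of the 2 libraries was in MEIS3, a homeodomain factor of the TALE class, with fold 5.65 in replicate 2 and 6.35 in replicate 3 (chr19:47419026-47419372). It lay 2985 bp from the outer start and 279 bp after an inner one. TET3, a dioxygenase that oxidises 5-methylcytosine, had 5.24 and 6.08 (chr2:73984513-73985392), 141 bp after an inner start. ZBTB46, a zinc finger factor of dendritic cells, had 5.51 and 5.31 (chr20:63831516-63832244), 461 bp before one.

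Of the 20 members of highest lower fold, 13 were within 1 kb of an annotated start, among them MEIS3, TET3, ZBTB46 and, described above, BAHD1, CAMKK2, KMT5A and ZFPM1. Over the 503 members on chromosomes with annotated starts, 223 (44.3%) were that close. The difference was not tested. ECPAS, a proteasome adaptor, had fold 5.11 and 5.30, 236 bp after an inner start. DLK2, a membrane protein related to Notch ligands, had 5.43 and 5.03 at 319 bp, and PDE4A, a cAMP phosphodiesterase, had 4.87 and 5.18 at 97 bp. IL15RA, the alpha chain of the interleukin-15 receptor, had 4.82 and 4.95 at 250 bp. FGFRL1, a fibroblast growth factor receptor without a kinase domain, had 4.94 and 5.63 at 195 bp, and CCDC106 had 5.05 and 4.97 at 272 bp.

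Others of the strongest 20 had no annotated start within 1 kb in the table. SH2B2, an adaptor of insulin receptor signalling, had 3 members 2290 to 3257 bp before the nearest annotated start, of which the one of highest lower fold had 4.95 in replicate 2 and 5.64 in replicate 3. TPBGL had 5.09 and 4.89 at 1006 bp from its start, at the edge of the zone. INSM1, a zinc finger factor of neuroendocrine cells, had 5.41 and 4.99, and TEX22 had 5.59 and 5.19, both in genes whose strand was not in the table. The INSM1 summits of the 2 libraries were 732 bp apart, so its 2 values are for different positions.

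Fold values just inside and just outside the zone overlapped. The members nearest to 1 kb were in WAC (1002 bp, fold 4.20 and 4.23), LHX5 (1002 bp, 4.02 and 3.79) and ZNF524 (1003 bp, 4.34 and 4.03). Just under 1 kb were shared peaks in EVC2 (998 bp, 4.22 and 4.43), ATXN1 (997 bp, 2.81 and 3.93) and RAPGEF2 (996 bp, 4.43 and 5.12). Near 5 kb, members in SNX12 (4981 bp, 3.93 and 4.37), CPT1A (4887 bp, 2.95 and 2.87) and CACNA2D4 (4883 bp, 3.33 and 4.06) faced shared peaks in ZMYND11 (5046 bp, 5.13 and 6.31), FAM110A (5046 bp, 3.78 and 3.57) and NR2F2 (5069 bp, 3.72 and 4.51).

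Among the 15 gene lists, regulators of transcription and chromatin held members most often. Of 51 AP-1, MYC, KLF and immediate early factors 8 held one (15.7%, exact 95% interval 7.02 to 28.6), against 2.35% of all genes. The same list and the chromatin enzymes also had many genes with a shared peak within 1 kb of an end, 39.2% and 42.9%, against 19.2% of all genes, so the 1 to 5 kb zone is not shown to be particular to them. By fold the 8 were ATF1, KLF5, JUN, MNT, KLF10, SP3, IER2 and NFE2L2. KLF5, a zinc finger factor of epithelial growth, had 3.56 in replicate 2 and 3.64 in replicate 3, 460 bp after an inner start. SP3, a factor that binds GC boxes, had 4.24 and 3.29, 221 bp before one, and NFE2L2, the regulator of the oxidative stress response, had 3.34 and 3.13, 465 bp after one. MNT, a partner of MAX that represses MYC targets, had 3.46 and 3.93 with no inner start nearby. The lists were not tested and were chosen with earlier results of these data known. Neither gene length nor the number of starts was matched.

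Of 56 chromatin enzyme genes 6 held a member (10.7%, exact 95% interval 4.03 to 21.9). They were TET3, HDAC7, KDM6B, SUV39H1, NSD1 and HDAC4. KDM6B, a demethylase of histone H3 lysine 27, had fold 5.09 in replicate 2 and 4.63 in replicate 3 (chr17:7841718-7842401), 2184 bp after an inner start and inside an overlapping protein-coding record too. SUV39H1, which trimethylates histone H3 lysine 9, had 4.83 and 4.42, 321 bp after an inner start. NSD1, a methyltransferase of histone H3 lysine 36, held 2 members on either side of inner starts, 182 bp before and 110 bp after the nearest, with fold 3.61 and 3.56 in replicate 2 and a shared partner of 4.36 in replicate 3. HDAC4, another class IIa deacetylase, had 3.68 and 3.35.

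The G2 and M phase list, the class FOXM1 is best known for, held none among 59 genes. The exact upper limit was 6.06%, so the interval includes the 2.35% of all genes and no shortage is shown. Of the 59, 15 (25.4%) had a shared peak within 1 kb of an end, against 19.2% of all genes. The G1/S and DNA replication list had 2 of 51 (3.92%), RBL1 and CCND1. CCND1, which encodes cyclin D1, held 2 members, with fold 4.23 and 2.85 in replicate 2, which shared 1 partner of fold 3.02 in replicate 3. The gene lies in the chromosome 11 stretch of high background, and the stronger member had a background of 10.5 in replicate 2 and 16.0 in replicate 3. DNA repair genes had 0 of 36 and p53 targets 1 of 24, BBC3, which encodes the apoptosis inducer PUMA and held 2 (the stronger with 3.53 and 4.40). FOXM1 itself was not a member, since the shared peak listed for it (fold 3.42 and 4.41) lay 739 bp from an end of the overlapping gene ITFG2. The annotated start nearest to that summit was of TEX52, 2013 bp away, so no annotated start of FOXM1 lay nearer.

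Hepatocyte product genes had 0 of 50, and hepatocyte transcription factors had 2 of 22, FOXA1 and FOXA2. FOXA2 had 2.98 in replicate 2 and 3.10 in replicate 3. Wnt, invasion and stemness genes had 3 of 38. They were ZEB2 (3.97 and 4.04), AXIN2, a feedback inhibitor of Wnt signalling (3.28 and 3.35), and PROM1, the surface marker CD133 (2.10 and 3.35). PROM1 was marginal in replicate 2, with a −log10 q of 1.46.

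In metabolic and signalling lists, 2 or 3 genes each held a member. Glycolysis had 2 of 26 (7.69%): PKM, pyruvate kinase (4.70 and 3.57), and ALDOA, aldolase A (4.61 and 3.33), 130 bp before an inner start. Cholesterol and fatty acid synthesis had 2 of 28 (7.14%), SCAP and ELOVL6, a fatty acid elongase (5.11 and 4.56). Receptor tyrosine kinases and MAP kinases had 3 of 59 (5.08%): FGFR3 (4.51 and 4.83), MAPK11, a p38 kinase (3.75 and 4.10), and PDGFRA (3.49 and 3.39), 416 bp before an inner start. The exact 95% intervals of these shares, the narrowest from 1.06% to 14.1%, include the 2.35% of all genes. Ribosomal protein genes had 0 of 55 (exact upper limit 6.49%) and blood and immune markers 0 of 37 (9.49%). Neuronal genes had 1 of 28 (3.57%, exact 95% interval 0.0904 to 18.3). These intervals include 2.35% too. The neuronal gene was TUBB3, a beta-tubulin of neurons, which held 2, the stronger with 4.13 and 3.50 at 102 bp after an inner start.

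Members were found on every chromosome compared. Chromosome 19 held the most, 55 of its 423 shared peaks. Chromosome 20 held 36 (11.9% of its shared peaks), in 32 genes, or 5.96% of its protein-coding genes, against 2.35% over all. X held 10, which were 23.8% of its 42 shared peaks, but only 1.06% of its protein-coding genes held one. Chromosome 21 held 2. Chromosome 3 had a low share of its shared peaks in the zone, 4.75%, and 1.31% of its protein-coding genes held a member. Only 16 members lay inside more than 1 protein-coding gene, and 24 lay inside a gene of another type.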

How the data were processed

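The submitters' processing notes name BWA, MACS2 2.2.7.1, CASAVA 1.4 and build GRCh38, without roles. Whether duplicates were removed and which library served as control are not given in the sources used here. The authors deposited a peak list and a summit list per ChIP library. The deposited fold is a linear ratio over local background, and the deposited −log10 p and −log10 q are those at the summit. The deposited score is −log10 q times 10, and the deposited summit offset is of another unit, in bp. Minimum −log10 q values were 1.32 and 1.31, so weaker peaks are not in the lists.

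Fragment counts and backgrounds were rebuilt from the deposited fold (with a pseudocount of 1) and −log10 p as a Poisson tail. All peaks (100%) matched within 0.001, with scales of 0.848 and 0.869. This and the position rules were tested on simulated data. The partner in replicate 3 was the overlapping peak of highest fold.

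Genes came from RefSeq GRCh38.p14 and starts from its promoter table (34961 starts), which gave strand for 15812 of 19259 protein-coding genes (82.1%) on the chromosomes it covers, all but chromosome 8. Exons were not used. Shares of bases count every eligible position. Shares have exact Clopper-Pearson 95% intervals, which cover counting error only. No p-values were computed, since regions are not replicates.

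Named genes were the 20 members of highest lower fold, up to 3 per list, FOXM1, those at the zone edges, the 5 widest and genes with at least 3 members, not all of which are reported. NRIP1, TUBB and others named for their printed window or among few list members were chosen after values were seen. The 15 lists had 620 entries, all matched. Members and lists were chosen with earlier results of these data known, and the analysis of annotated starts and motifs in promoter windows was added after seeing the data. Computations used Python 3.11.15, numpy 2.4.6, pandas 2.3.3, SciPy 1.17.1 and matplotlib 3.10.9.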

Additional observations from a re-analysis of the deposited data

How the results depend on the processing

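Of 71 alternative values for 9 results, 34 stayed within the interval of the reported value (or within 1.5 times, for counts) and 37 moved. With −log10 q of at least 5 in both libraries there were 102 members in 100 genes, median fold 4.42 in replicate 2 and 4.64 in replicate 3, 92.7% nearer to a start, 53.5% within 1 kb of an annotated start and 12.7% in genes with a shared peak at an end. With reciprocal overlap of at least 50% there were 288 members in 280 genes, 23.96% with an end peak and 59.7% with summits within 100 bp. Requiring summits within 100 bp (100% by construction) left 274 in 266 genes, replicate 3 fold 3.84 and 20.4% with an end peak. Members at 2 to 5 kb were 203 in 180 genes, 3.55% of shared peaks, 71.7% nearer to a start, 48.98% within 1 kb of an annotated start and 30.0% with an end peak. Counting ends of protein-coding genes only gave 11.04% of shared peaks and 49.9% within 1 kb of an annotated start. With 1 library left out, sharing is not required and members ranged from 799 to 1158, genes from 691 to 950, their share from 9.71% to 10.1%, the start side from 76.0% to 78.1%, closeness to annotated starts from 37.1% to 37.8% and end peaks from 46.3% to 52.2%. Fold was then 3.72 in replicate 2 (without replicate 3) and 3.75 in replicate 3 (without replicate 2). Within 500 bp and 250 bp of an annotated start lay 36.0% and 24.3%. The cause of the moves was not tested, beyond fewer or more peaks by construction. Alternatives for closeness to annotated starts were chosen after seeing the data. The motif share around summits needs a genome sequence, which was not used here. No paired analysis was possible because the replicate numbers occur in the ChIP group alone and the results come from no test. A median of 26 fragments per summit limits the detection of weak peaks.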
